A study of Mus musculus with 6 samples.

Results

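The genes Asb1, Traf3ip1, Ing5 and Tsn lie on mouse chromosome 1. Each was measured at a higher level in the cortex of Rest mutant embryos than in wild-type embryos. The 4 genes were chosen from 48709 annotated genes by that rise itself, in the unstranded read counts of all 6 libraries, so their differences between genotypes are given below as a description with no test. The libraries came from neocortex of C57BL/6 embryos at age E15.5. The WT group held 3 wild-type embryos, and the group called Rest_het held 3 embryos with the genotype Rest(+/deltaExon4), heterozygous for an allele of Rest without exon 4; the sample titles abbreviate this group as KO. The labels name separate mice but give no litter, sex or breeding history, so the SDs measure the spread between these libraries. The p-values set the difference between the groups against variation between libraries. Whether that variation includes litters is not known.

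The 4 genes encode proteins of unrelated pathways. ASB1 carries ankyrin repeats and a SOCS box, the motif through which such proteins join elongins B and C and a cullin to form a ubiquitin ligase. TRAF3IP1 is a subunit of the anterograde particle of intraflagellar transport, where it pairs with IFT20, and is needed to build cilia. ING5 has a PHD finger that reads methylated histone tails and belongs to the histone acetyltransferase complexes built on KAT7, KAT6A and KAT6B. Translin, the product of Tsn, binds nucleic acids and, with its partner TRAX (gene Tsnax), forms an endoribonuclease that assists the loading of small RNAs. REST, the factor altered in the mutants, represses neuronal genes through the RE1 element, a long site made of a left and a right block.

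All positions are in GRCm38. Traf3ip1 (ENSMUSG00000034292) spans chr1:91494647-91529307 and Asb1 (ENSMUSG00000026311) chr1:91540544-91559589, both on the plus strand. The gap between them is 11.2 kb and holds 0 annotated genes, with Traf3ip1 upstream of Asb1. Ing5 (ENSMUSG00000026283) spans chr1:93803965-93822101 on the plus strand, 2.24 Mb beyond Asb1. Tsn (ENSMUSG00000026374) spans chr1:118294778-118311739 on the minus strand, 24.5 Mb beyond Ing5. Merged exons cover 3712 bases in Traf3ip1, 6432 in Asb1, 4729 in Ing5 and 9046 in Tsn.

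The promoters are shown because the altered protein is a factor that binds DNA. Each line gives the 250 bases before a RefSeq start site (GRCm38.p6), read 5′ to 3′ on the strand of the gene. Capitals mark matches, on either strand, to any of 7 motifs: the left block TTCAGCACC and the right block GGACAGC of the RE1 element, the GC box GGGCGG, the CCAAT box CCAAT, the ETS core CCGGAAG, the TATA box TATAAA and the E-box CACGTG.

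Asb1, chr1:91540315-91540564, plus strand: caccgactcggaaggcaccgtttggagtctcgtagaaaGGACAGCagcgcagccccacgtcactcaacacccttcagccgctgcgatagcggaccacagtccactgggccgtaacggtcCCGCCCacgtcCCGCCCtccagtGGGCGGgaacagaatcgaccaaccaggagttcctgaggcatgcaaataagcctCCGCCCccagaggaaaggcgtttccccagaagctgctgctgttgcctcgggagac

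Traf3ip1, chr1:91494418-91494667, plus strand: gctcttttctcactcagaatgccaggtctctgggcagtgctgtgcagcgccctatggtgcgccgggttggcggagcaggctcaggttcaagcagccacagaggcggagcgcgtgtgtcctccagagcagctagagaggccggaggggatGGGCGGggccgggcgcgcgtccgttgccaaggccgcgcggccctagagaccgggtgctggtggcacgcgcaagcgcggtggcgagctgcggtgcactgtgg

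Ing5, chr1:93803715-93803964, plus strand: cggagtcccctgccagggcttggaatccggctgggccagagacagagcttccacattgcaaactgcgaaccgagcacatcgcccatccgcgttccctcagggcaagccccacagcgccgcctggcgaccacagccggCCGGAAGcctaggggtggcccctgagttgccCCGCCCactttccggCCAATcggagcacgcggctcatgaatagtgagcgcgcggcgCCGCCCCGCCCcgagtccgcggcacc

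The Asb1 window held 1 right block of RE1, from base -212 to base -206 relative to the start site, and 4 GC boxes. The Traf3ip1 window held 1 GC box. The Ing5 window held 3 GC boxes, of which 2 share a base, together with 1 CCAAT box and 1 ETS core. None of these windows held the left block of RE1, the TATA box or the E-box. Over all 32851 RefSeq windows of this length, 5.28% held the right block of RE1, 0.301% the left block, 32.7% a GC box, 33.8% a CCAAT box, 6.91% the ETS core, 12.4% the TATA box and 6.02% the E-box. A match is a description of letters and does not show a bound site. The GC content was 62.8% for Asb1, 69.6% for Traf3ip1 and 70% for Ing5, beside a median of 52.4% over all windows. CpG dinucleotides numbered 19, 24 and 26, beside a median of 6. The table lists a second start site for Asb1, whose window held 0 matches to the 7 motifs. For Tsn it gives a start 1011 bases inside the GENCODE gene, so that window is not shown.

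Asb1 had the widest separation. It measured 7.50, 7.75 and 8.65 CPM (gene reads scaled to a library of 1000000 with TMM factors) in WT replicates 1 to 3 and 614, 602 and 581 CPM in Rest_het replicates 1 to 3. These values rest on 147 to 168 reads in WT and 10872 to 11352 reads in Rest_het libraries. The lowest mutant library lay 67.1-fold above the highest WT library. The fitted fold was 75.1, with an interval of 65.5 to 86.1, and the mean rose from 7.97 ± 0.604 to 599 ± 16.7 CPM (SD, n = 3). Intervals here and below are nominal 95% ones, 1.96 SE on each side on the log2 scale. This normal approximation is narrower than the F test of edgeR implies. By level, Asb1 stood at place 8851 of 15385 tested genes in WT and at place 186 in Rest_het libraries. In bulk tissue, more cells with a transcript and more transcript per cell cannot be told apart.

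Traf3ip1, the upstream neighbour of Asb1, measured 15.7, 19.4 and 20.9 CPM in WT and 65.1, 74.8 and 65.4 CPM in Rest_het libraries. The groups did not overlap, and the lowest mutant library was 3.11-fold above the highest WT library. The fitted fold was 3.67 (interval 3.10 to 4.35). Within WT the spread was the largest of the 4 genes, with a coefficient of variation of 14.4%, close to the median of 13.0% over all tested genes.

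Ing5 measured 24.9, 28.3 and 22.3 CPM in WT and 54.5, 53.4 and 58.9 CPM in Rest_het libraries. Every mutant library lay above every WT library, by a factor of at least 1.89. The fitted fold was 2.21 (interval 1.91 to 2.55).

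Tsn measured 660, 651 and 613 CPM in WT and 1049, 1180 and 998 CPM in Rest_het libraries, from 11904 to 21298 reads per library. It was abundant in both genotypes, at place 182 of the tested genes in WT and place 92 in Rest_het. The groups were 338 CPM apart at their nearest values, while the range within the mutants was 182 CPM and within WT 47.0 CPM. The fitted fold of 1.68 (interval 1.49 to 1.89) was the smallest of the 4, yet the mean rose by 434 CPM, an increase exceeded among the 4 genes by the 591 CPM of Asb1 and far above the 49.8 CPM of Traf3ip1 and 30.4 CPM of Ing5.

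**Figure D1:**
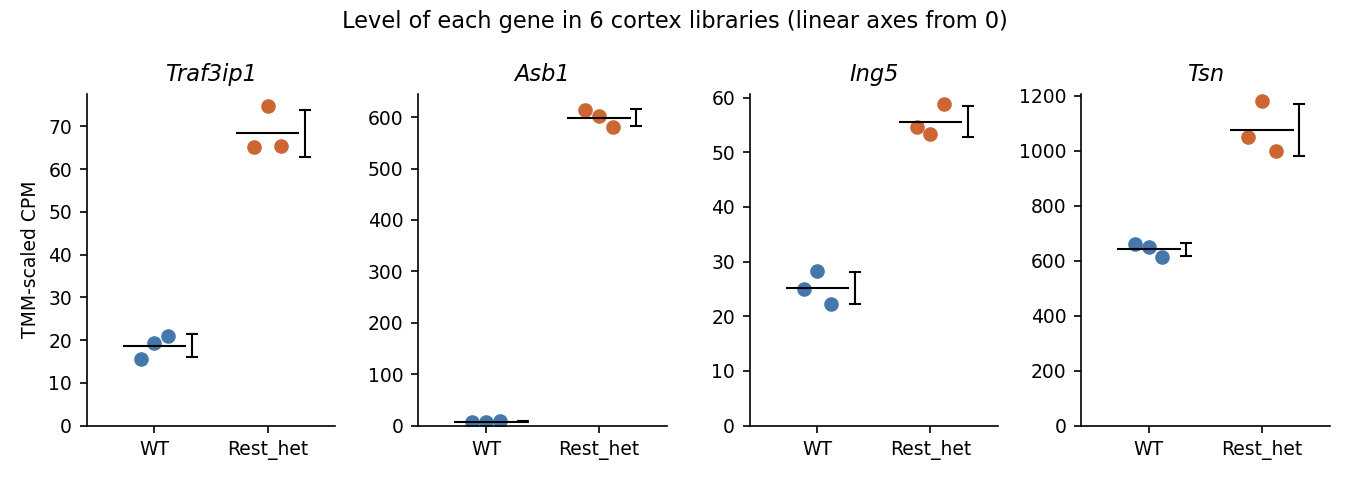
Level of Traf3ip1, Asb1, Ing5 and Tsn in TMM-scaled CPM on linear axes from 0. Points are libraries (WT blue, Rest_het orange; 3 each), horizontal lines are means and bars are SD; in each panel the 3 mutant libraries lie above the 3 WT libraries.

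The values that chose the genes are set beside the whole table as a description, since the choice fixed their direction and their calls carry no support. All 4 were among the 10 genes that edgeR called higher at an adjusted p under 0.05, which is 0.065% of 15385 tested genes, with 0.0585% called lower and 0.123% in either direction. Full separation of the groups with the mutants higher, which the 4 genes show, was found in 10.4% of tested genes. Tsn was not among the called genes when any 1 of WT replicates 1, 2 and 3 or Rest_het replicates 1 and 2 was left out, nor were Ing5 and Tsn with the replicate number as a block. Across all 16 alternative settings the log2 fold change kept its sign for each gene. It ran from 6.19 to 6.29 for Asb1, from 1.76 to 1.97 for Traf3ip1, from 1.06 to 1.23 for Ing5 and from 0.68 to 0.80 for Tsn.

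Library-wide values bear on any difference between these groups. Gene reads per library ranged from 17835117 to 20753653, with WT libraries deeper than mutant libraries. Rest itself, the targeted gene, stood at 20.6 ± 0.778 CPM in the WT libraries and 18.1 ± 1.23 CPM in the mutants (SD, n = 3; edgeR adjusted p = 0.49), a gene total that does not check the loss of exon 4. LacZ reads were found in WT libraries alone (27, 51 and 43) and Cre-ERT2 reads in Rest_het libraries alone (10, 16 and 17). The libraries of the groups thus differed in these reads too. The labels name no transgene, and the source of the reads was not tested. The part of this difference in the rise of the 4 genes was not tested either. All 11 neocortex markers used, among them Emx1, Tbr1 and Neurod6, had reads in every library, and their summed level was 2887 to 3145 CPM in WT and 2652 to 2807 CPM in Rest_het, lower in every mutant library. The part of that in the levels of the 4 genes was not tested. The 4 choroid plexus markers summed to 2.95 to 55.2 CPM in WT and 7.26 to 363 CPM in Rest_het, in overlapping ranges. Sums of the ventral telencephalon, thalamus, erythroid, microglia, meninges and endothelium markers overlapped between the groups too, and edgeR called 0 markers of any list. Within the mutants the choroid plexus sum was 174, 7.26 and 363 CPM in replicates 1 to 3, and its part in the levels of the 4 genes was not tested.

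Levels were compared between genes per kilobase of merged exons. In WT libraries Tsn was the highest at 70.9 ± 2.76 CPM per kb (SD, n = 3), and Asb1 the lowest at 1.24 ± 0.0939 CPM per kb. Ing5 at 5.32 ± 0.633 and Traf3ip1 at 5.02 ± 0.724 CPM per kb overlapped in WT. In Rest_het libraries the order of levels was Tsn at 119 ± 10.4, Asb1 at 93.1 ± 2.59, Traf3ip1 at 18.4 ± 1.48 and Ing5 at 11.8 ± 0.614 CPM per kb, with no overlap between neighbours in that order. The adjacent pair thus changed order. The ratio of the Asb1 level to the Traf3ip1 level per kb was 0.276, 0.231 and 0.239 in WT and 5.44, 4.65 and 5.12 in Rest_het replicates 1 to 3.

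The deposited counts are also split by strand. The library chemistry does not mark strand, so the strand columns divide the same reads that chose the genes and give no independent check. The first strand column held 42.6 to 52.4% of Asb1 reads, 48.8 to 51.6% of Traf3ip1 reads, 44.0 to 50.6% of Ing5 reads and 48.1 to 49.4% of Tsn reads. At most 2 reads per gene and library were shared with a gene on the opposite strand. Fitted on each strand column alone, the log2 fold change was 6.25 and 6.20 for Asb1, 1.92 and 1.82 for Traf3ip1, 1.08 and 1.20 for Ing5, and 0.76 and 0.72 for Tsn. Reads between Traf3ip1 and Asb1, and the use of particular exons, are not in gene counts and were not analysed here.

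The next question was how far the rise extended along the chromosome. Within 500 kb of the 4 genes lie 83 other annotated genes, of which 28 passed the count filter. By edgeR 0 of these 28 were called, beside 0.123% of all tested genes, and limma-voom called 0. DESeq2 called 2 of them, Dtymk and Sept2, beside 0.888% of the genes to which it gave an adjusted p. Of the 28, it gave none to Ramp1, Gm7785, Gm28535, 2900060B14Rik and Tfcp2l1. Counting unadjusted edgeR p-values under 0.05 gave 9 of 28, with 4 higher and 5 lower in Rest_het, beside 11.7% of all tested genes. The groups did not overlap for 12 of 28, with 5 higher and 7 lower, beside 19.3% of all tested genes, of which 10.4% were higher and 8.94% lower. The median log2 fold change of the 28 was -0.095, beside 0.0054 over all tested genes. The neighbours thus lay on both sides of 0, with 10 above and 18 below. In a window of 250 kb edgeR called 0 of 16, and the median turned to 0.065, with 9 above and 7 below 0. Of these 16, 6 had an unadjusted edgeR p under 0.05 (4 higher, 2 lower), beside 11.7% of all tested genes. The groups did not overlap for 8 of 16 (5 higher, 3 lower), beside 19.3% of all tested genes. In a window of 2 Mb these counts were 12 of 62 (5 higher, 7 lower) and 19 of 62 (8 higher, 11 lower).

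Around Traf3ip1 and Asb1, 9 neighbours were tested, 4 above and 5 below 0. The nearest tested gene upstream is Per2, a period gene of the circadian clock, 35.3 kb from Traf3ip1 on the opposite strand. Per2 measured 1.67, 1.48 and 2.01 CPM in WT and 2.27, 2.60 and 2.76 CPM in Rest_het (log2 fold change 0.56, SE 0.24, edgeR adjusted p = 0.43). The nearest tested gene downstream is Hdac4, a histone deacetylase, 369 kb from Asb1. Its level was 245 ± 25.7 CPM over the WT and 219 ± 9.11 CPM over the mutant libraries (SD, n = 3; edgeR adjusted p = 0.52). Neither gene passed the test. The groups overlapped for Hdac4 and not for Per2, whose mutant libraries were all higher.

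Ing5 lies between 2 close genes whose values ran in opposite directions. Dtymk, which encodes thymidylate kinase of nucleotide synthesis, starts head to head with Ing5 at a gap of 2.03 kb. It measured 258, 265 and 254 CPM in WT and 338, 391 and 383 CPM in Rest_het, a fold of 1.43, with an edgeR adjusted p of 0.12 and a DESeq2 adjusted p of 0.00016. D2hgdh, which encodes a mitochondrial dehydrogenase of 2-hydroxyglutarate, starts 2.81 kb beyond the end of Ing5 on the same strand. It measured 11.8, 10.2 and 12.3 CPM in WT and 7.08, 6.76 and 8.45 CPM in Rest_het (log2 fold change -0.62, SE 0.15, edgeR adjusted p = 0.32). For both genes the groups did not overlap, with the mutants above WT for Dtymk and below WT for D2hgdh. The edgeR adjusted p of Dtymk was 0.016 with no count filter, and it was not called in any other edgeR or limma fit.

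Next to Tsn, 4 genes were tested and all 4 log2 fold changes were below 0. The nearest is Nifk, a nucleolar protein that binds the Ki-67 antigen, which starts 10.1 kb from Tsn on the opposite strand. Nifk measured 69.1, 72.4 and 65.6 CPM in WT and 64.3, 67.3 and 63.3 CPM in Rest_het, with overlapping groups and an edgeR adjusted p of 0.68. On the other side of Tsn 0 genes within 500 kb passed the filter.

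**Figure D2:**
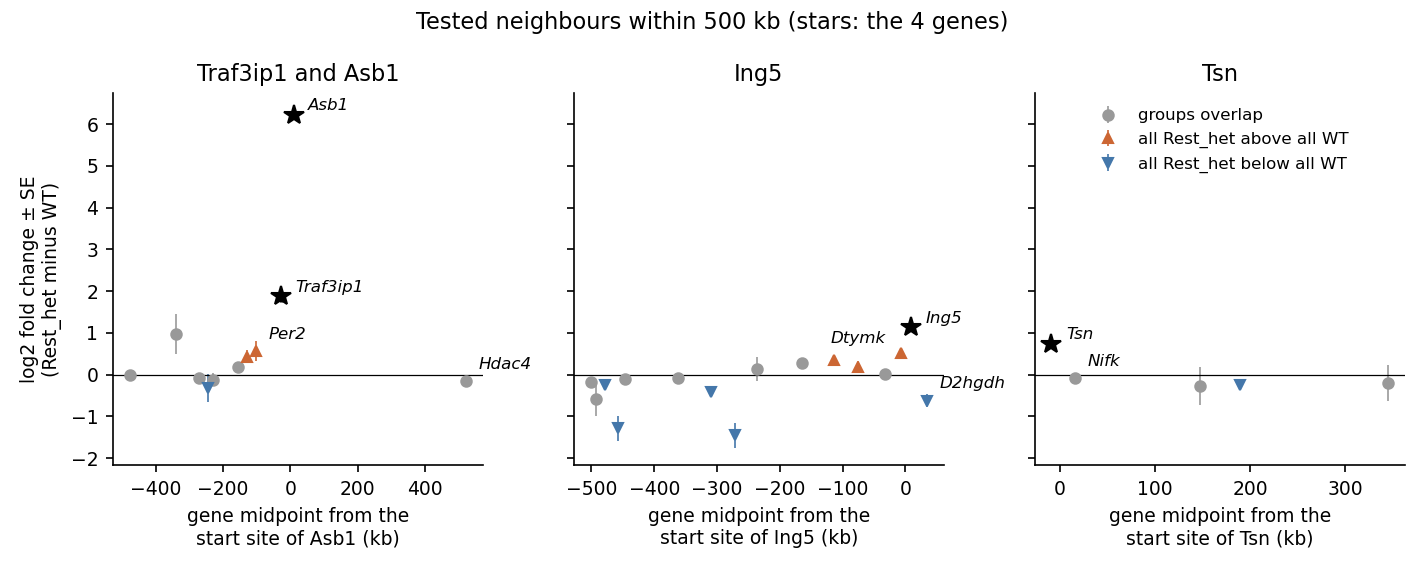
Log2 fold change (Rest_het minus WT) with SE of tested genes within 500 kb, against the distance in kb of each gene's midpoint from the start site of Asb1, Ing5 or Tsn. Stars are the 4 genes, triangles mark neighbours whose groups did not overlap, and circles those whose groups overlap; Dtymk and D2hgdh flank Ing5 at 0.52 and -0.62.

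Between the outer ends of Traf3ip1 and Tsn, edgeR called 1 of 51 other tested genes, beside 0.123% of all tested genes. It was the pseudogene Tdpx-ps1, which was lower in Rest_het. At an unadjusted p under 0.05 there were 15 of these 51, with 4 higher and 11 lower, beside 11.7% of all tested genes, of which 1074 were higher and 726 lower. Over the other 1018 tested genes of chromosome 1, edgeR called 2 higher, Gm37100 and Tmem163, and 3 lower, Irs1, Tdpx-ps1 and Mgat5. Over all tested genes it called 0.065% higher and 0.0585% lower. The median of the 1018 was -0.058 on the log2 fold scale (429 above and 589 below 0). Over all tested genes it was 0.0054 (7832 above and 7553 below 0). The 4 genes described here were 4 of the 6 called higher on this chromosome. They were chosen by that rise, so this count gives no support. Between Asb1 and Ing5 lie 25 tested genes, of which edgeR called 0, beside 0.123% of all tested genes.

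**Figure D3:**
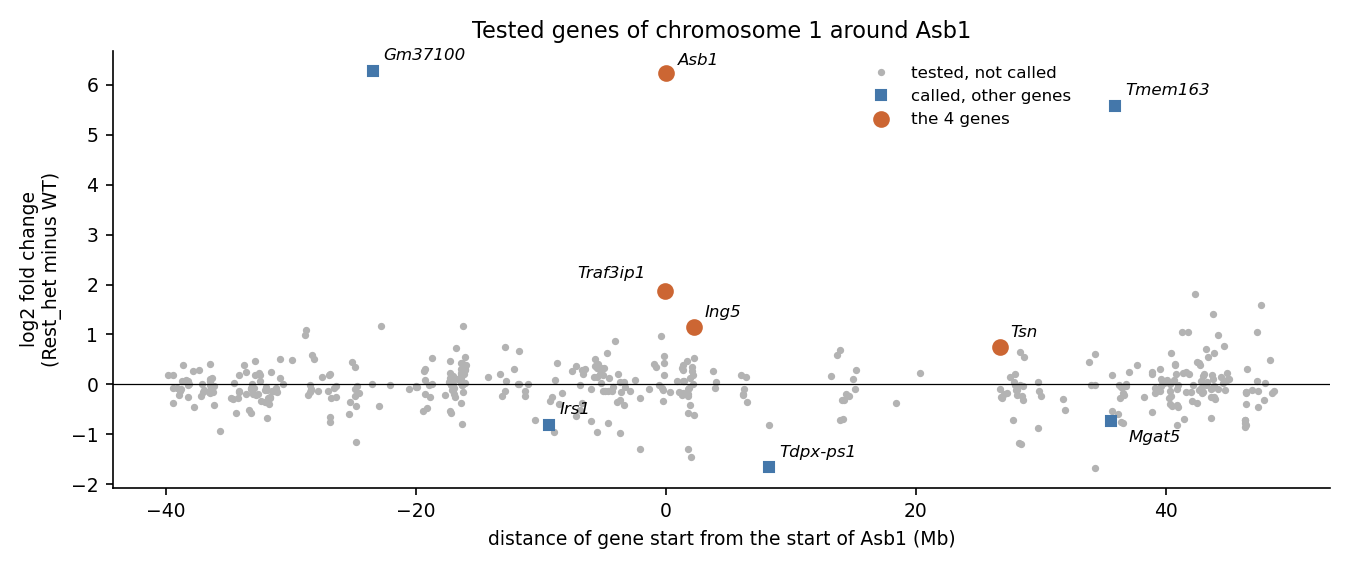
Log2 fold change (Rest_het minus WT) of the tested genes in a stretch of chromosome 1 around Asb1, against the distance of each gene start from the start of Asb1 in Mb. Orange circles are Traf3ip1, Asb1, Ing5 and Tsn, blue squares the other genes edgeR called and grey points the genes not called; the 4 genes stand at 1.88, 6.23, 1.14 and 0.75.

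Likeness across libraries was measured as Pearson's r of log2 CPM over the 6 libraries, which share their genotype split, and is given with no test. Among the 4 genes r ran from 0.96 for Ing5 with Tsn to 0.99 for Asb1 with Traf3ip1. The 5 genes most like Asb1 were Tmem163, Gm8730, Cnp, Gm37100 and Gm42980 (r 0.992 to 0.9999). For Traf3ip1 they were Gm8730, Faf1, Tmem163, Asb1 and Gm37100 (r 0.991 to 0.995). For Ing5 they were Gm42829, Gm14165, Slc12a4, Gm8730 and Slc6a9 (r 0.982 to 0.995), and for Tsn Gprin2, 1700001L19Rik, 2410131K14Rik, Tapt1 and Ncl (r 0.981 to 0.988). Ncl encodes nucleolin, an abundant nucleolar protein, and lies on chromosome 1 too. The patterns of Asb1 and Traf3ip1 share 3 of these genes, Tmem163, Gm8730 and Gm37100, and Gm8730 is listed for Ing5 too. EdgeR called all 3 higher, and Asb1 and Traf3ip1 were chosen by their rise, so the sharing gives no support for a link. Gm37100 averaged only 0.017 CPM in WT and 1.82 CPM in Rest_het.

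Asb1 was set beside the other 17 genes of the ASB family, the SOCS-box proteins with ankyrin repeats. Of these, 8 passed the filter and 9 did not. EdgeR called 0 of 8, with 1 at an unadjusted p under 0.05 beside 11.7% of all tested genes, and DESeq2 and limma-voom called 0. The median log2 fold change was -0.016, with 3 above and 5 below 0, beside 7832 above and 7553 below over all tested genes. Asb4, which had the smallest p, measured 1.58, 1.79 and 3.09 CPM in WT and 6.27, 5.15 and 2.82 CPM in Rest_het (edgeR adjusted p = 0.36), with overlapping groups. Asb14 stood at -0.69 and Asb7 at -0.18 on the log2 fold scale, and neither passed the test (edgeR adjusted p = 0.47 and 0.49). Per kb, Asb1 was the sixth of 18 family members by level in WT, below Asb8 at 15.9 and Asb3 at 7.998 CPM per kb, and the highest in Rest_het, where Asb8 stood at 15.6 and Asb3 at 7.97 CPM per kb.

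**Figure D4:**
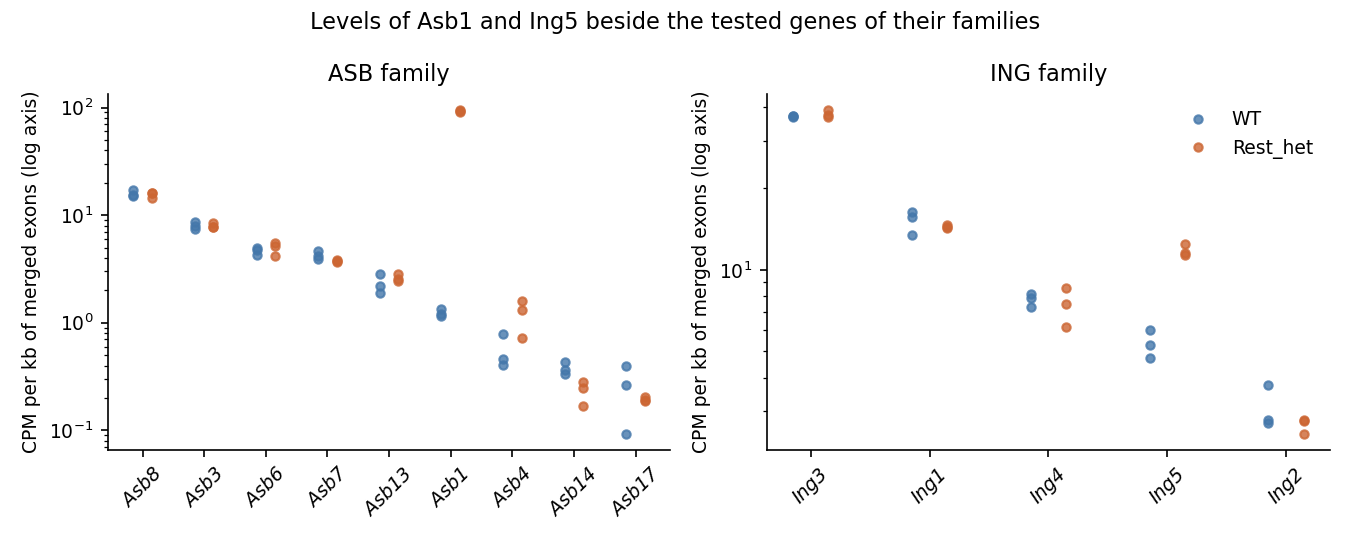
Level in CPM per kb of merged exons on log axes of the tested ASB and ING family genes, ordered by WT level. Points are libraries (WT blue, Rest_het orange; 3 each); Asb1 goes from 1.24 to 93.1 and Ing5 from 5.32 to 11.8 CPM per kb.

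A list of 19 genes, 18 of them tested, held partners that make a ubiquitin ligase from a SOCS-box protein. It also held Tab2 and other SOCS-box genes, Socs1 to Socs7 and Cish. EdgeR called 0, with 4 of 18 at an unadjusted p under 0.05 (1 higher, 3 lower) beside 11.7% of all tested genes, and DESeq2 and limma-voom called 0. The 4 at an unadjusted p under 0.05 were Socs2, Socs3, Socs6 and Socs7. The median log2 fold change was -0.052. Cul5, the scaffold cullin, varied within both groups, with 430, 622 and 413 CPM in WT and 532, 371 and 568 CPM in Rest_het (log2 fold change 0.0059, interval of the fold 0.766 to 1.32). Socs3, a feedback inhibitor of cytokine signalling, measured 2.25, 2.69 and 3.09 CPM in WT and 4.70, 4.65 and 4.41 CPM in Rest_het (edgeR adjusted p = 0.32), without overlap. Socs2, a regulator of growth hormone signalling, measured 213, 214 and 128 CPM in WT and 117, 131 and 118 CPM in Rest_het (edgeR adjusted p = 0.35). Socs6 was split within WT, with 293 and 284 CPM in replicates 1 and 3 and 16.9 CPM in replicate 2, while the mutants held 17.7, 16.7 and 19.3 CPM. Its edgeR adjusted p was 0.32, but 8.5e-06 without WT replicate 2 and 0.0022 with all libraries and no count filter.

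Traf3ip1 belongs with the genes of intraflagellar transport. A list of 30 genes held such genes together with Traf3 and Disc1, and 28 of the 30 were tested. EdgeR called 0, with 1 of 28 at an unadjusted p under 0.05 beside 11.7% of all tested genes, and DESeq2 and limma-voom called 0. The log2 fold changes lay between -0.38 and 0.21, with a median of -0.035. Ift20, the direct partner of TRAF3IP1, measured 45.7, 50.4 and 50.4 CPM in WT and 48.7, 53.4 and 51.4 CPM in Rest_het, with a fold of 1.05 and an interval of 0.935 to 1.17. The ratio of Traf3ip1 to Ift20 per kb was 0.156 ± 0.0148 in WT and 0.549 ± 0.0260 in Rest_het (SD, n = 3). The genes of smallest p were Ift80 at -0.33, Ttc26 at -0.38 and Dync2li1 at 0.21 on the log2 scale (edgeR adjusted p = 0.36, 0.47 and 0.49). No listed partner had a fold near the 3.67 of Traf3ip1.

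For Ing5 the list held the other ING genes and the KAT7, KAT6A and KAT6B complexes, 13 of 14 genes tested. EdgeR called 0 and limma-voom 0, with 3 of 13 at an unadjusted p under 0.05, all lower in Rest_het, beside 11.7% of all tested genes. DESeq2 called 1, Brd1, a scaffold subunit, beside 0.888% of the genes it gave an adjusted p. Brd1 measured 91.2, 68.1 and 94.96 CPM in WT and 55.4, 53.7 and 60.1 CPM in Rest_het, with an edgeR adjusted p of 0.32 and a DESeq2 adjusted p of 0.016. Brpf3, another scaffold, stood at -0.45 and the acetyltransferase gene Kat6b at -0.23 on the log2 fold scale (edgeR adjusted p = 0.41 each). The median was -0.12, with 3 above and 10 below 0. Per kb, Ing5 was the fourth of the 5 ING genes by level in WT, below Ing4 at 7.77 CPM per kb, and the third in Rest_het, above Ing4 at 7.40 CPM per kb. Ing3, at 36.9 and 37.6 CPM per kb, was the highest in both groups.

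For Tsn the list held Tsnax, genes of small RNA processing, and Bdnf and Camk2a, whose transcripts translin is known to bind. All 14 were tested, and edgeR, DESeq2 and limma-voom called 0, with 1 of 14 at an unadjusted edgeR p under 0.05 beside 11.7% of all tested genes. Tsnax measured 51.4, 81.7 and 86.9 CPM in WT and 87.1, 83.8 and 84.6 CPM in Rest_het, in overlapping groups (fold 1.16, interval 0.911 to 1.48, edgeR adjusted p = 0.65). The ratio of Tsn to Tsnax per kb overlapped as well, at 5.56, 3.45 and 3.05 in WT and 5.21, 6.10 and 5.11 in Rest_het. Camk2a, a kinase of synaptic plasticity, measured 3.39 ± 0.343 and 5.03 ± 1.11 CPM (SD, n = 3; edgeR adjusted p = 0.40). Bdnf, a neurotrophin, measured 0.573, 0.316 and 0.669 CPM in WT and 1.62, 1.44 and 0.478 CPM in Rest_het (edgeR adjusted p = 0.43), and Prkra, a partner of Dicer, stood at 0.28 on the log2 fold scale (edgeR adjusted p = 0.45). The median of the list was 0.023, with 7 above and 7 below 0.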

How the data were processed

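The samples were 6 neocortex libraries made from oligo dT-primed, PCR-amplified cDNA without strand marks or molecular identifiers, per the labels' protocols. The authors' deposited files hold read counts per gene from alignments to GRCm38.p4 by STAR 2.5.2a, per the submitters' processing notes. A second deposited file gives normalized signal for 18995 genes; DESeq2 is named in those notes, and each signal value was the count over 1 factor per library (relative tolerance 1e-06). Gene reads ranged from 17835117 to 20753653 per library. Rows naming no gene stayed out: 2.54 to 2.85% of read pairs were ambiguous between genes and 21.4 to 26.9% fell in no gene.

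Counts were tested with edgeR 4.0.16 (quasi-likelihood, TMM, R 4.3.3) over the 15385 genes that passed filterByExpr (minimum count 10, total 15), adjusted by Benjamini-Hochberg over all of them, with a threshold of 0.05. SE is the log2 fold change over the root of F. Positions and exon lengths came from GENCODE (GRCm38), matched for 48349 of 48709 gene IDs, and promoters from RefSeq. Named genes were the 4 genes, called list genes or else the 3 of smallest p, the partners Ift20, Tsnax and Cul5, the nearest tested neighbours and the 5 most alike genes. The 4 genes and the lists were chosen with earlier results of these data known. The values of 1 listed marker are not reported here. Tried beside it were scaling by DESeq2 size factors and by upper quartiles, the test of DESeq2 1.42.0, limma-voom and limma 3.58.1 on log2 of the deposited values plus 1, other filters, a replicate block, each library left out, each strand column and other windows. The pipeline was checked on data with known changes. Plots used matplotlib 3.10.9.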

Additional observations from a re-analysis of the deposited data

Results flagged for a closer look

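Reads outside the gene counts drew attention. LacZ had 121 reads in the 3 WT libraries and 0 in each Rest_het library, where 3 reads, the limit that a count of 0 allows, are 0.163 to 0.168 per 1000000 gene reads. Cre-ERT2 had 43 reads in the 3 Rest_het libraries and 0 in each WT library, where the limit was 0.145 to 0.150. These limits cover counting error only. The part of this difference between the groups in the levels of Asb1, Traf3ip1, Ing5 and Tsn was not tested.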

How the results depend on the processing

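The fold changes of Asb1, Traf3ip1, Ing5 and Tsn moved by less than the spread between replicates in all 16 alternatives. With 1 library left out they ran from 6.19 to 6.29, 1.76 to 1.97, 1.06 to 1.23 and 0.68 to 0.80 on the log2 scale. The count of called genes, 19 over all genes, was 126 by DESeq2, 107 with no count filter, 6 with the replicate block, and 12 to 35 with 1 library left out (12 without WT replicate 1, 35 without WT replicate 2, 32 without Rest_het replicate 3); the cause was not tested. Called neighbours within 500 kb were 0, but 2 by DESeq2 and 2 with no count filter, and 0 in the windows of 250 kb and 2 Mb. The list of ligase partners and SOCS-box genes had 0 called genes, but 1 with no count filter. It had 0 to 1 with 1 library left out (1 without WT replicate 2, Socs6). The ING list had 0, but 1 by DESeq2 and 1 with no count filter. The other lists had 0 called genes in each alternative. Same-numbered libraries of the groups correlated at 0.012, 0.037 and -0.14 in their deviations from the group means, and not each library correlated best with its own number, so the numbers were not taken as pairs. Depth limited Asb1 in WT, which rests on 147 to 168 reads per library, and the WT levels of ASB genes that failed the filter.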

Other observations

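Other neighbours within 500 kb of Ing5 were chosen for mention after their values were seen. Sept2, a septin of the cytoskeleton and the most abundant gene of the window, measured 7079, 6329 and 6302 CPM in WT and 4691, 4957 and 5179 CPM in Rest_het, with an edgeR adjusted p of 0.32 and a DESeq2 adjusted p of 0.0065. Bok, a BCL2 family gene, measured 33.4, 36.5 and 35.7 CPM in WT and 45.6, 47.8 and 41.9 CPM in Rest_het (edgeR adjusted p = 0.32). The groups did not overlap for either gene, lower in the mutants for Sept2 and higher for Bok. On the side of Tsn, Clasp1, which encodes a microtubule plus-end protein, measured 654, 545 and 519 CPM in WT and 467, 466 and 503 CPM in Rest_het (edgeR adjusted p = 0.40), again without overlap.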
